A study of Bos taurus with 46 samples.

Results

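The 10 genes described here are marker genes of platelets, measured in RNA of circulating leukocytes of pregnant heifers. They were chosen by name (*PF4*, *PPBP*, *ITGA2B*, *ITGB3*, *GP9*, *GP1BA*, *TUBB1*, *SELP*, *TREML1* and *MYL9*), and all 10 were found among the 30675 genes of the NCBI count table (25404 of these genes had any read). The study sequenced leukocytes of 23 young Angus crossbred heifers of breeding age on D55 and again on D105 of gestation, which gave 46 libraries. The AI heifers (n = 8, the controls) conceived by artificial insemination. The IVP-Normal heifers (n = 6) and the IVP-LOS heifers (n = 9) carried embryos produced in vitro, with the IVP-LOS fetuses heavier than the limit the study set from its controls for large offspring syndrome. Some of the IVP heifers carried a pair of fetuses, and heifers 604 and 664 each carried 1 of the 2 heaviest IVP-LOS fetuses. By the paper's list of dams, that of 604 was 1 of a pair, while 664 carried 1 fetus alone. All heifers, controls included, had their estrus synchronized with progesterone and prostaglandin, and the embryos transferred were crosses of taurine oocytes with a Brahman sire.

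Platelets are small blood cells without a nucleus that are shed by megakaryocytes in the bone marrow and that plug damaged vessels. They carry RNA from the megakaryocyte, so their transcripts are found in any RNA extract that contains platelets. Leukocytes were obtained here from the buffy coat, the layer between plasma and red cells in spun blood, in which platelets also lie, and the red cells were then lysed and the pellet washed. In bulk RNA of this kind, fewer cells of a type and less RNA per cell cannot be told apart. A level below is therefore a share of the RNA of the extract.

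The reads assigned to genes numbered 18692653 to 24502012 per library. In the labels all D55 libraries and those of IVP-Normal heifers on D105 belong to a set named New, and those of the AI and IVP-LOS heifers on D105 to a set named BACKUP, so that day and set cannot be told apart in the latter groups. Treatment and set likewise cannot be told apart where IVP-Normal heifers are compared with another group on D105 or in their change between days. A figure legend of the paper places D55 blood in winter and D105 blood in summer. Day and season therefore cannot be told apart in any of the groups. The D105 libraries of 604 and 664 stood apart from the other 21 of that day. They had 18692653 and 19641136 reads on genes (others, 21775579 to 24473385), and 38.6% and 36.7% of their reads fell on no gene (others, 24.3% to 31.1%). The comparison of both with the other 21 is given with and without each of them. For several other D105 results, values without heifer 604, or without both, are given as well.

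Together the 10 genes held from 0.0370% to 0.293% of the reads on genes in 45 libraries and 0.704% (95% Wilson interval 0.7004% to 0.708%, counting error only) in the D105 library of heifer 604. The median over all 46 libraries was 0.102%. On D55 the share was 0.112% ± 0.0398 in AI heifers (SD, n = 8), 0.142% ± 0.0865 in IVP-Normal heifers (SD, n = 6) and 0.161% ± 0.0849 in IVP-LOS heifers (SD, n = 9). On D105 the corresponding shares were 0.0796% ± 0.0276, 0.105% ± 0.0445 and 0.173% ± 0.208. The groups overlapped on both days, and the spread of the last group came from heifer 604, since its median was 0.0988%.

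The first pair of genes encodes chemokines stored in platelet alpha granules. *PF4* (platelet factor 4) ranged over 46 libraries from 56.6 CPM (the reads of a gene scaled to the library size with TMM) in AI heifer 648 on D105 to 2267 CPM in heifer 604 on D105, a ratio of 40.0. On D55 its lowest, median and highest values were 81.4, 214 and 375 CPM in AI heifers, 85.5, 324 and 634 CPM in IVP-Normal heifers, and 103.5, 217 and 776 CPM in IVP-LOS heifers. On D105 they were 56.6, 145 and 297 CPM in AI heifers, 58.1, 259 and 380 CPM in IVP-Normal heifers, and 65.9, 214 and 2267 CPM in IVP-LOS heifers. The groups overlapped on each day, with the lowest values of the 3 groups close together and the highest values in IVP-LOS heifers. *PPBP* (pro-platelet basic protein), the neighbour of *PF4* in the RefSeq gene table, had medians of 17.2, 14.6 and 23.7 CPM on D55 and of 15.8, 17.1 and 17.8 CPM on D105 in AI, IVP-Normal and IVP-LOS heifers. Its range was 5.47 to 61.8 CPM. It was the gene of this set in which heifer 604 on D105 stood least far above the next library, heifer 628 on D55 at 55.9 CPM.

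*ITGA2B* and *ITGB3* encode the 2 chains of the integrin that binds fibrinogen and links platelets to each other. *ITGA2B* varied least among the genes with more than a few reads, from 37.7 CPM in IVP-Normal heifer 519 on D55 to 201 CPM in heifer 604 on D105, a ratio of 5.34 (3.61 without that last library). Its D55 range was 62.2 to 82.0 CPM in AI heifers, 37.7 to 103.4 CPM in IVP-Normal heifers and 49.0 to 106.01 CPM in IVP-LOS heifers. In AI heifers the levels were tightly grouped, and the range of the IVP heifers enclosed them. *ITGB3* ranged from 50.5 CPM (heifer 519, D105) to 794 CPM (heifer 604, D105), a ratio of 15.7 (6.68 without that last library). An uncharacterized gene, *LOC132343085*, overlaps *ITGA2B* in the RefSeq table of a later assembly, and whether that affected the counts, made on an earlier assembly, was not tested.

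*GP9* and *GP1BA* encode subunits of the receptor by which platelets hold on to von Willebrand factor. *GP9* ranged from 1.72 CPM (heifer 656, D105) to 66.1 CPM (heifer 604, D105), and the next highest library, heifer 512 on D55, had 20.1 CPM. *GP1BA* was scarce, with 0 to 40 reads per library and 3 or fewer reads in 17 of 46 libraries. It had 0 reads in 2 libraries, heifer 648 on D55 and heifer 557 on D105, which allows levels of up to 0.129 and 0.137 CPM (3 reads). The receptor subunits thus differed in how well they could be followed at this depth, and *GP1BA* passed the expression filter in only some comparisons.

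*TUBB1*, the beta tubulin of the platelet's microtubule coil, had 2650 to 56909 reads per library. On D55 its lowest, median and highest levels were 170, 508 and 778 CPM in AI heifers, 227, 481 and 1260 CPM in IVP-Normal heifers, and 245, 584 and 1245 CPM in IVP-LOS heifers. On D105 they were 118.9, 374 and 534 CPM in AI heifers, 163, 441 and 697 CPM in IVP-Normal heifers, and 201, 463 and 3310 CPM in IVP-LOS heifers. The lowest library on each day was AI heifer 648. *MYL9*, a regulatory light chain of myosin that is also abundant in smooth muscle, ranged from 47.9 CPM (heifer 519, D105) to 888 CPM (heifer 604, D105). *SELP* (P-selectin, an adhesion receptor of platelet granules and of endothelium) ranged from 1.72 CPM (heifer 519, D105) to 41.4 CPM. *TREML1*, a receptor of the granules of platelets, ranged from 0.840 CPM (heifer 533, D105) to 25.0 CPM, and for both the highest library was again heifer 604 on D105.

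**Figure D1:**
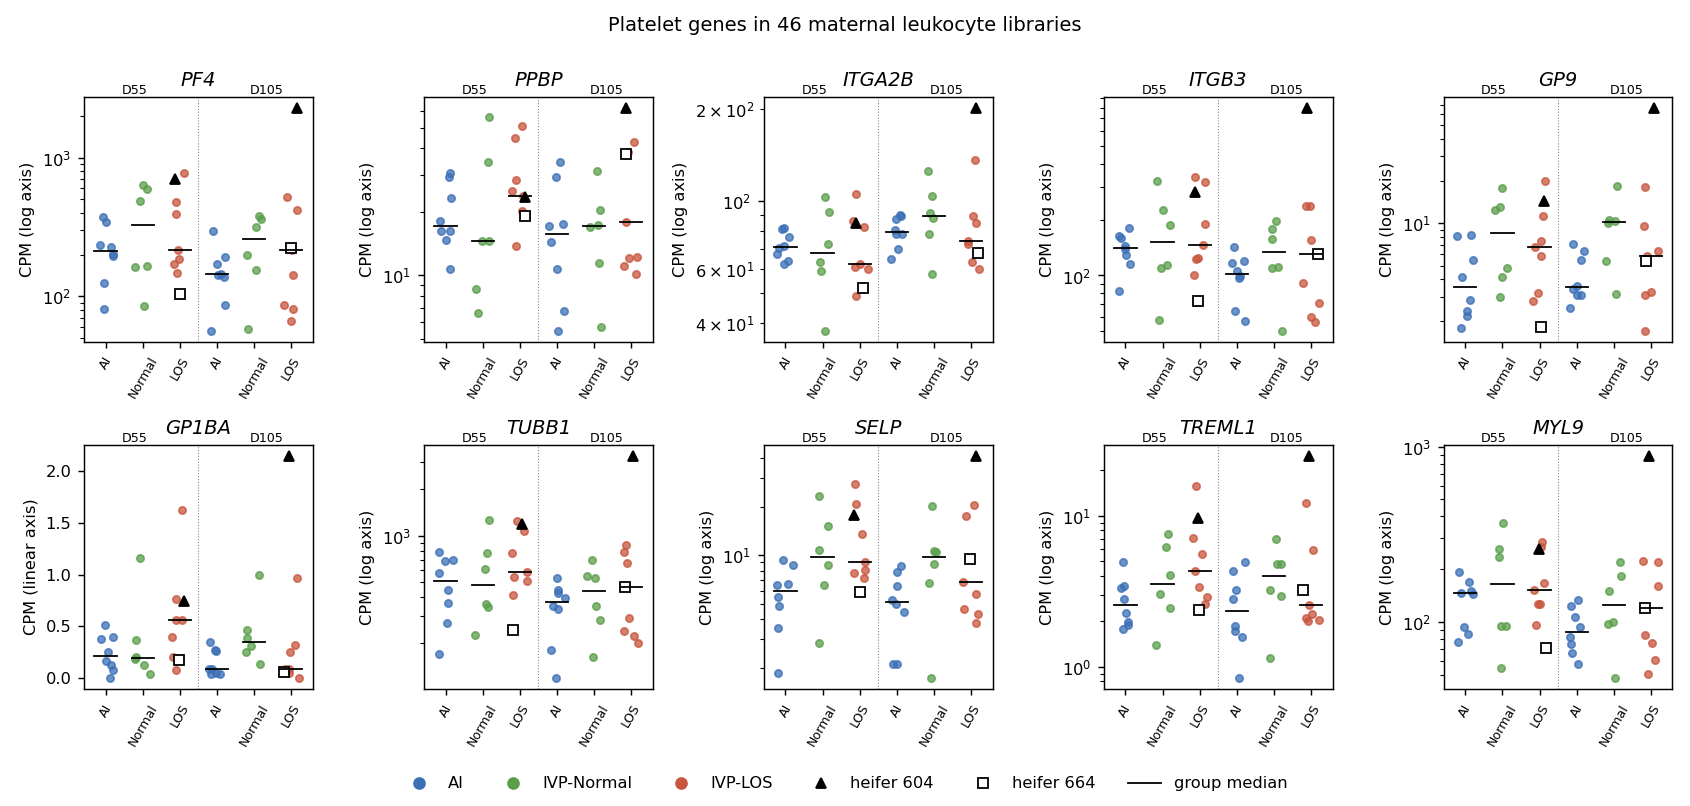
TMM-scaled CPM of the 10 platelet genes in each of the 46 libraries (log axis, linear for *GP1BA*), by treatment group on D55 (left of the dotted line) and D105 (right), with the group median as a line and heifers 604 and 664 marked. The groups overlap for each gene, and heifer 604 on D105 is the highest point of all 10 plots (2267 CPM for *PF4*).

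*SELP* and *MYL9* are not restricted to platelets, so markers of vessel and muscle cells were read in the same libraries. Of 9 endothelial genes, 4 had a median under 1 CPM, and the summed level of the list was 29.2 to 64.5 CPM on D55 and 27.7 to 72.3 CPM on D105. Of 12 smooth muscle and fibroblast genes, 10 had a median under 1 CPM, and the sums were 5.32 to 41.4 CPM and 3.52 to 85.4 CPM. *EMCN*, *CLDN5* and *ROBO4* of endothelium and *CNN1* and *DES* of muscle were under 1 CPM in all 46 libraries. Others of these lists were well above that on D105, such as *PECAM1*, which leukocytes also express (21.98 CPM in 604, 19.5 CPM in 664 and 18.2 to 53.6 CPM in the other 21), *CDH5*, the cadherin of endothelial junctions (1.16, 2.68 and 0.495 to 6.63 CPM), and *MYH11*, a smooth muscle myosin (5.12, 6.12 and 1.13 to 5.67 CPM). *ACTA2*, smooth muscle actin, was 32.5 CPM in 604, 2.57 CPM in 664 and 1.503 to 3.36 CPM in the others. The part of vessel and muscle cells in the levels of *SELP* and *MYL9* was not tested. As a description across heifers, the mean of the endothelial list had Pearson r 0.04 on D55 and 0.00 on D105 with the mean level of the platelet genes. For the smooth muscle and fibroblast list r was -0.09 and -0.15. Both lists hold many scarce genes, and the endothelial list holds *PECAM1*, so these values do not show what part such cells had.

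Platelet genes rose and fell together from heifer to heifer. Over the 23 heifers of a day, the 45 pairs among the 10 genes had Pearson correlations of log2(CPM + 1) between 0.56 and 0.95 on D55 (median 0.80) and between 0.58 and 0.97 on D105 (median 0.87). Without heifer 604 the D105 median was 0.78. Over all pairs of the 13857 genes with a mean of at least 1 CPM, the median correlation was -0.00 on each day, with the middle of the distribution between -0.22 and 0.22 on D55 and between -0.26 and 0.27 on D105. These are descriptions over libraries that share the heifers and the scaling.

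The genes did not vary by the same factor. For each gene, its log2 level was set against the mean log2 deviation of the other 9. The slope was 1.49 ± 0.12 (SE) on D55 and 1.52 ± 0.09 on D105 for *PF4*, so that its level spread more than that of the others. It was close to 1 for *ITGB3* (0.99 ± 0.08 and 1.06 ± 0.06) and *MYL9* (1.07 ± 0.09 and 1.12 ± 0.07). For *ITGA2B* it was 0.42 ± 0.06 on D55 and 0.43 ± 0.05 on D105, the lowest apart from *GP1BA*, whose slope on the log2(CPM + 1) scale is held down by its low counts. Without heifer 604 the D105 slopes were 1.52 ± 0.13 for *PF4*, 1.02 ± 0.08 for *ITGB3*, 1.04 ± 0.09 for *MYL9* and 0.38 ± 0.06 for *ITGA2B*. *PPBP* followed the others least closely on D55 (r 0.75), and *PF4* and *ITGB3* most closely (0.94 each). The standard deviation of log2(CPM + 1) over the 46 libraries had a median of 0.83 over the 10 genes, against 0.26 over the 13857 genes.

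The level of a heifer on D55 was largely found again on D105. The correlation between the days was tested for each gene over the 23 heifers with 100000 permutations and Benjamini-Hochberg adjustment over 13857 genes. Of the 10 platelet genes, 9 had a mean of at least 1 CPM and entered the test, and all 9 were called with a positive correlation, in a test that called 38.9% of all genes (32.7% by Spearman's rho, which called the same number of platelet genes, 9). *TREML1* had the highest correlation (Pearson r 0.82, permutation p 2e-05, FDR 0.000269, and Spearman rho 0.76, permutation p 5e-05, FDR 0.000767). *ITGB3* had the lowest (r 0.67, permutation p 0.00027, FDR 0.00183, and rho 0.58, permutation p 0.00388, FDR 0.0177). For *PF4* r was 0.72 (permutation p 6e-05, FDR 0.000601) and rho 0.64 (permutation p 0.00141, FDR 0.0086). The median r over all 13857 genes was 0.39, below that of each of the 9.

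The correlations were also computed with animals left out. Without the 2 heifers farthest from the D55 median, r of the 9 genes lay between 0.55 (*TUBB1*) and 0.73 (*TREML1*), and without heifer 604 between 0.65 (*TUBB1*) and 0.82 (*TREML1*). The days were also compared within library sets. In the 17 AI and IVP-LOS heifers, whose D105 libraries belong to the set BACKUP, r lay between 0.61 (*ITGB3* and *MYL9*) and 0.80 (*TREML1*). In the 6 IVP-Normal heifers, with both libraries in the set New, it lay between 0.84 (*GP9*) and 0.97 (*MYL9* and *SELP*). *GP1BA*, which was not tested for its low level, had r 0.65.

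**Figure D2:**
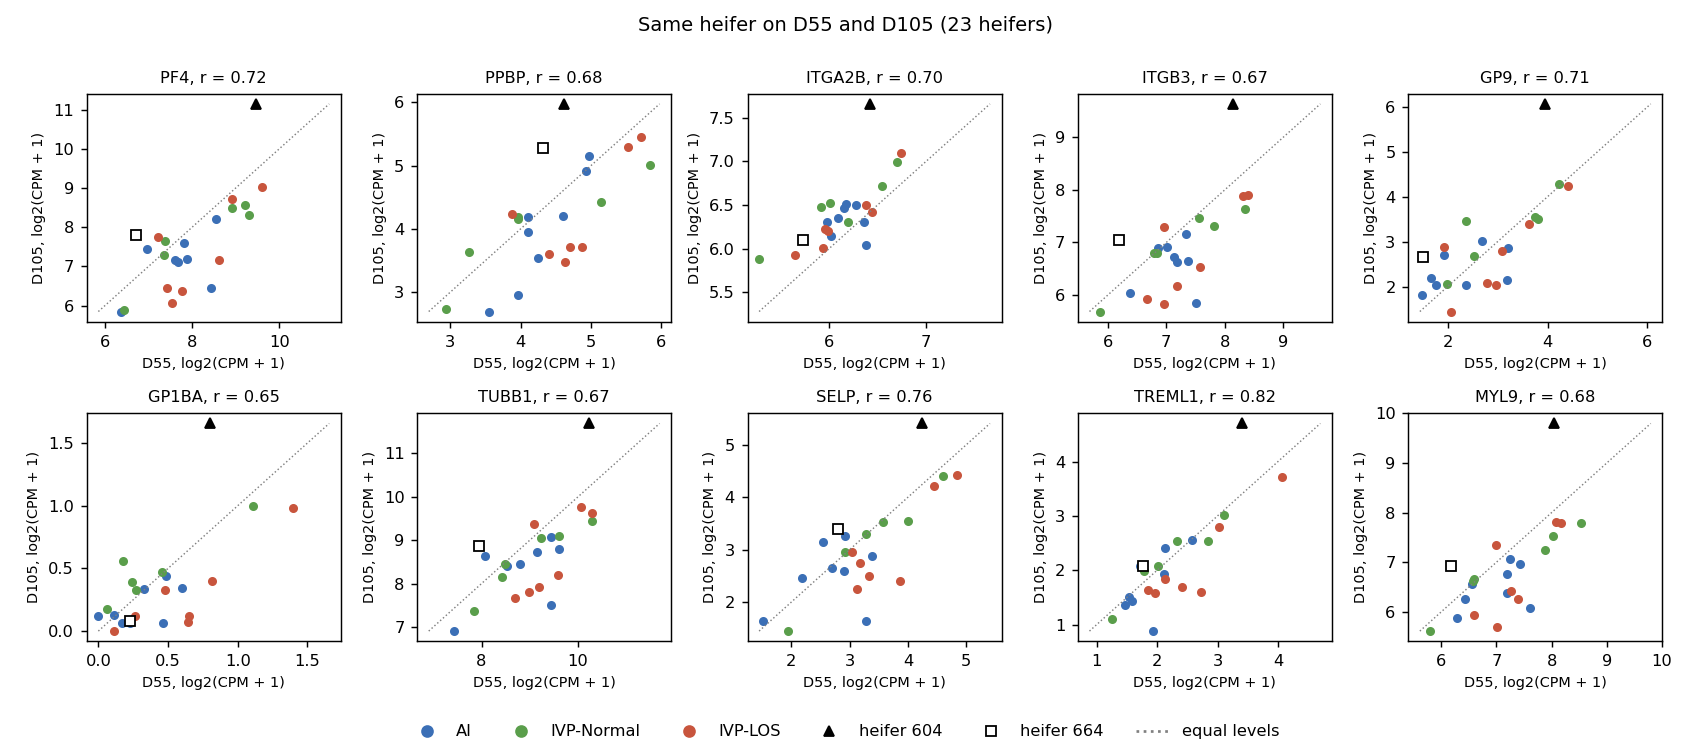
Level of each platelet gene on D105 against the level of the same heifer on D55, both as log2(CPM + 1), for 23 heifers coloured by treatment, with r as Pearson's correlation and a dotted line where the levels are equal. Heifers with high D55 levels also tend to have high D105 levels (r 0.65 for *GP1BA* to 0.82 for *TREML1*), and heifer 604 lies above the line for each gene.

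To follow single heifers, a platelet index was taken as the mean over the 10 genes of the log2(CPM + 1) value minus the mean of that gene over the 46 libraries. An index of 1 is thus a level about double the mean. Heifer 519 had the lowest D55 and the lowest D105 index (-1.04 and -1.19), AI heifer 648 the next lowest on both days (-0.91 and -1.12). Heifer 512 was highest on D55 (1.36) and next to heifer 604 on D105 (1.03). The index of heifer 628 was 1.22 on D55 and 0.80 on D105. Over the 23 heifers the index had r 0.71 and rho 0.60 between days (r 0.73 without heifer 604).

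The index fell from D55 to D105 in 16 of 23 heifers and was higher on D105 in 7. In IVP-Normal heifers, the only group with both days in the same library set, it was lower in 4 of 6, though season also differed between the days. The greatest decrease was that of AI heifer 533, which went from 0.24 to -1.02 and in which all 10 genes were lower on D105. Decreases of at least 0.69 were also seen in IVP-LOS heifers 616, 637, 656 and 663. The greatest increases were those of heifer 604 (from 0.95 to 2.39, all 10 genes higher) and heifer 664 (from -0.65 to 0.04, 9 of 10 genes higher). The index was computed from these same values and was not tested.

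**Figure D3:**
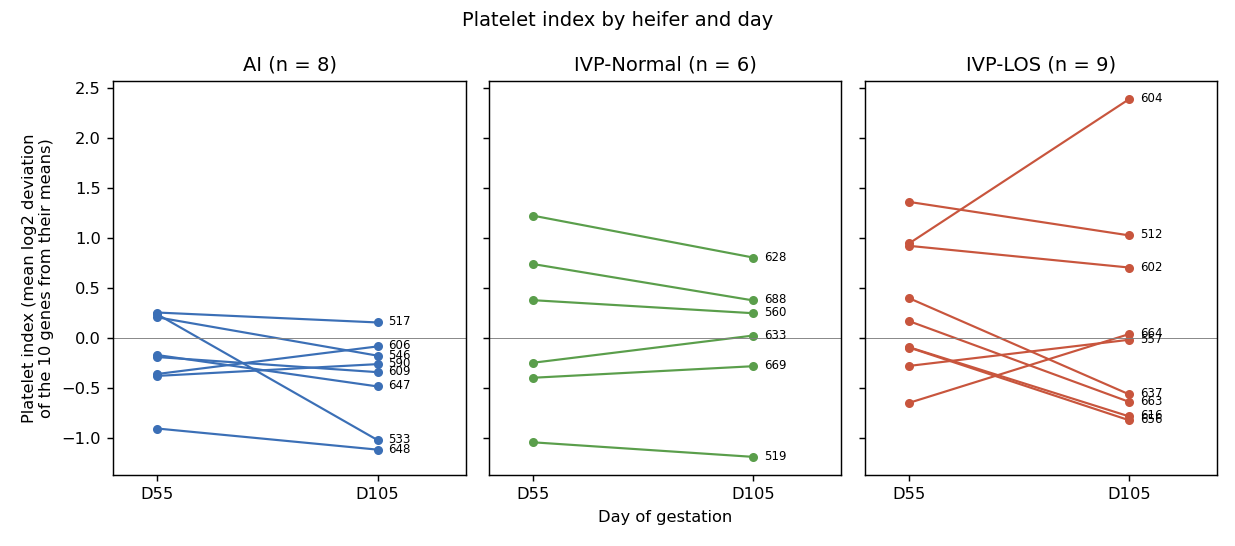
Platelet index of each heifer on D55 and D105, in mean log2 units relative to the mean of each gene over the 46 libraries, with a line per heifer and the heifer number at its right end. Most lines fall or stay level (16 of 23 lower on D105), and heifer 604 rises from 0.95 to 2.39.

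The change between days was tested within each treatment group with edgeR's quasi-likelihood test, and differences are D105 minus D55. In AI heifers 0 of 9 platelet genes tested were called (9.95% of all genes were), with 2 at an unadjusted p under 0.05 (22.6% of all genes) and 0 by DESeq2 or edgeR's likelihood ratio test. The log2 changes ran from -0.53 (*PF4*, SE 0.32, FDR 0.357) to 0.16 (*ITGA2B*, SE 0.08, FDR 0.251). *MYL9* was lower on D105 in 8 of 8 AI heifers and *TUBB1*, *PF4* and *ITGB3* in 7 of 8 each. With the heifer as a replicate block, 1 gene was called, *MYL9* (log2 change -0.49, FDR 0.0369), where 17.1% of all genes were called. In that fit 5 of 9 had an unadjusted p under 0.05, a level for which the share of all genes was not computed. *ITGB3* was just outside the threshold in that fit (-0.48, FDR 0.0570).

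In IVP-Normal heifers 0 of 9 were called (2.45% of all genes), 0 had an unadjusted p under 0.05 (13.3% of all genes), and 0 were called by DESeq2 or the likelihood ratio test. *ITGA2B* was higher on D105 in 6 of 6 of these heifers while *TUBB1* was lower in 6 of 6. With the heifer block *ITGA2B* was called (log2 change 0.37, FDR 0.0426, 5.5% of all genes called), and *TUBB1* was not (-0.40, FDR 0.0571). With that block 5 of 9 had an unadjusted p under 0.05 (share of all genes not computed), against 0 without it. In IVP-LOS heifers 0 of 9 were called without or with the block (0.251% and 1.07% of all genes), and 0 by the other tools. At an unadjusted p under 0.05 there were 0 without the block (12.6% of all genes) and 1 with it. The median log2 change of the 9 genes in that group was 0.11 with all heifers, -0.44 without heifer 604 and -0.52 without heifers 604 and 664. Over all 23 heifers *ITGA2B* was higher on D105 in 20, and *TUBB1* was lower in 19, so the genes of this set did not all follow the same direction. In AI and IVP-LOS heifers these changes cannot be told apart from the change of library set, and in no group from the change of season.

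Neutrophil genes moved between the days as well. In AI heifers 10 of 11 tested genes of a neutrophil list were called higher on D105 (7.21% of all genes were) and in IVP-Normal heifers 5 of 10 (2.27% of all genes), with median log2 changes of 2.00 and 1.77. In IVP-LOS heifers 0 of 8 were called by edgeR's quasi-likelihood test, 5 of 8 had an unadjusted p under 0.05 (12.6% of all genes), and the median was 1.48. Since levels are shares of the RNA, these values stand beside the changes of the platelet genes, and their part in them was not tested. An interaction term tested for differences between groups in the change from D55 to D105. No platelet gene was called of 9 or 10 tested in each of the 3 interactions (0.0% of all genes) and 0 were called by DESeq2. At an unadjusted p under 0.05 there were 0 as well, against 3.39% of all genes for AI and IVP-Normal heifers, 0.828% for IVP-LOS and IVP-Normal heifers and 4.96% for AI and IVP-LOS heifers. Between IVP-LOS and AI heifers, the change of the AI group minus that of the IVP-LOS group had a median of -0.42 over the 10 genes. Over the 9 tested without heifer 604 it was 0.02, and over the 9 tested without heifers 604 and 664 it was 0.14.

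The treatment groups were compared on each day, with 9 or 10 platelet genes passing the filter. None was called in any of the 6 comparisons, in which 0.0% of all genes were called, and DESeq2 and the likelihood ratio test called 0 of them as well. For IVP-LOS against AI heifers on D105 all 9 log2 differences were positive, from 0.24 (*ITGA2B*, SE 0.21) to 1.61 (*GP9*, SE 0.62), with a median of 1.17 against 0.03 over all genes. Here 7 of 9 had an unadjusted p under 0.05 (5.76% of all genes did), while FDR values were 0.754 to 0.768. Without heifer 604 the median was 0.43, and without heifers 604 and 664 it was 0.44. In both fits 0 of 9 had an unadjusted p under 0.05, so these values rest on 1 library.

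On D55 the same comparison gave log2 differences from 0.00 (*ITGA2B*, SE 0.13) to 1.16 (*SELP*, SE 0.34), with a median of 0.56. The lowest FDR was 0.636, for *SELP* and *TREML1* (log2 difference 1.10, SE 0.37), which were also the 2 genes with an unadjusted p under 0.05 (7.74% of all genes). *SELP* was 1.86, 5.98 and 9.37 CPM (lowest, median and highest) in AI heifers and 5.92, 9.05 and 27.7 CPM in IVP-LOS heifers, so the groups overlapped. Without heifer 604 the D55 difference of *SELP* was 1.09 on the log2 scale, nearly that with it.

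For IVP-Normal against AI heifers, which on D105 also differ in library set, the median log2 difference of the platelet genes was 0.47 on D55 and 0.53 on D105, with 2 of 9 genes at an unadjusted p under 0.05 on each day (9.92% and 9.57% of all genes). For IVP-LOS against IVP-Normal heifers the medians were 0.20 and 0.66, with 0 genes at an unadjusted p under 0.05 (5.19% and 3.24% of all genes). Without heifer 604 these latter medians were 0.07 and -0.09, and without heifers 604 and 664 they were 0.19 and -0.08. The medians of the comparisons with AI heifers were thus positive on both days, while none of the single genes passed the threshold.

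On D105 heifers 604 and 664 were compared with the other 21, the comparison the study made for the largest fetuses. Of the 10 platelet genes 8 were called and all 8 were higher, where 21.1% of all genes were called (11.6% higher and 9.48% lower). All 10 had an unadjusted p under 0.05, as had 37.4% of all genes. Among them was *GP1BA*, which did not pass the filter in the treatment comparisons of that day. The study set these heifers apart both for their fetuses and because their leukocyte transcriptomes clustered away from the rest, so the choice was not independent of the genes measured. The pair joins a heifer with the highest levels and another within the range of the rest. *PF4* was 2267 CPM in 604 and 222 CPM in 664, and 56.6, 155 and 521 CPM (lowest, median and highest) in the other 21, with a log2 difference of 2.59 (SE 0.56, FDR 0.00441). Heifer 604 was 4.35 times the highest of the others, while 6 of the 21 were above heifer 664.

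*TUBB1* was 3310 CPM in 604 and 463 CPM in 664, and 118.9 to 873 CPM in the other 21 (median 350), a log2 difference of 2.16 (SE 0.48, FDR 0.00484). *MYL9* was 888 and 120.5 CPM against 47.9 to 224 CPM (median 97.3), a log2 difference of 2.097 (SE 0.45, FDR 0.00436). *ITGB3* was 794 and 131 CPM against 50.5 to 237 CPM (median 110), a log2 difference of 1.92 (SE 0.44, FDR 0.00574). In each of these structural and adhesion genes heifer 604 lay alone above the others and heifer 664 lay among them, below 7 or 8 of the 21. *GP9*, *TREML1* and *SELP* showed the same order, with log2 differences of 2.38 (FDR 0.00812), 1.96 (FDR 0.0213) and 1.67 (FDR 0.0449).

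*PPBP* was the gene in which heifer 664 ranked highest, with 61.8 CPM in 604 and 37.7 CPM in 664 against 5.47 to 42.6 CPM (median 16.9) in the other 21, of which 2 exceeded heifer 664. Its log2 difference was 1.42 (SE 0.50, FDR 0.0453). *ITGA2B* and *GP1BA* were not called. *ITGA2B* was 201 CPM in 604 and 67.7 CPM in 664, with 17 of 21 heifers above the latter (log2 difference 0.65, SE 0.26, FDR 0.0720). *GP1BA* had 37 reads in 604 and 1 read in 664 (log2 difference 2.00, SE 0.84, FDR 0.0854).

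The counts were then repeated without each of the 2 heifers. Without heifer 604 none of the 10 genes was called (3.27% of all genes, 0 of the 10 at an unadjusted p under 0.05), and the log2 differences of heifer 664 from the other 21 had a median of 0.07. They were 0.11 for *PF4*, 0.14 for *TUBB1*, -0.35 for *GP9* and -0.16 for *TREML1*, and 1.02 for *PPBP* (FDR 0.361). Without heifer 664, 7 of 10 were called although only 4.17% of all genes were, with a median log2 difference of 2.85. *ITGA2B* was then called (1.23, FDR 0.0115), and *PPBP* (1.73, FDR 0.128) and *SELP* (2.37, FDR 0.0570) were not. The lone heifer is assumed in such a fit to vary like the others. Among libraries of the set BACKUP alone, 8 of 10 were called, as were 4976 of all 16634 genes tested. *GP1BA* was now called (2.39, FDR 0.0493), with 37 reads in 604 and 1 in 664, and *PPBP* was not (1.38, FDR 0.0557). With a group of 2 the filter admits a gene that reaches the minimum count in 2 libraries, and heifer 604 had the highest *GP1BA* level. That call is thus not independent of how the gene was admitted.

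**Figure D4:**
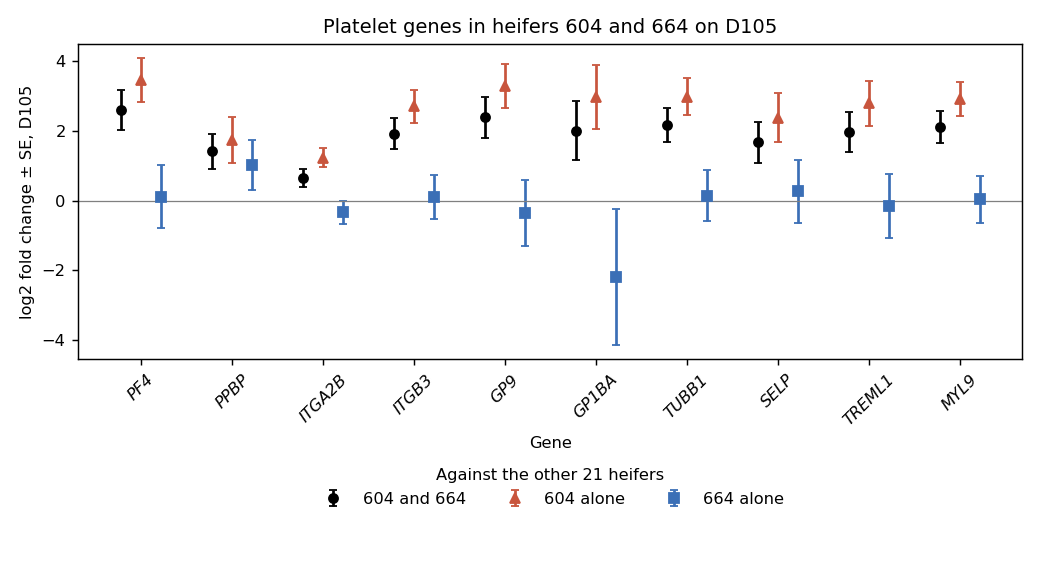
Fitted log2 fold change with its SE of each platelet gene on D105 for heifers 604 and 664 together, for heifer 604 alone and for heifer 664 alone, each against the other 21 heifers. The values of heifer 604 alone lie above 1 for all 10 genes (*ITGA2B* lowest at 1.23), and those of heifer 664 alone lie between -0.35 (*GP9*) and 0.26 (*SELP*) except for *PPBP* (1.02) and the scarce *GP1BA* (-2.18).

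Heifer 604 had high platelet genes already on D55. Its D55 index of 0.95 was within the range of the 21 others (-1.04 to 1.36), and the summed CPM of the 10 genes (2597) was exceeded by 2 of them. *PF4* was 704 CPM in that library, with 1 of 21 above it, and *PPBP* was 23.5 CPM, with 9 of 21 above it. From D55 to D105 all 10 genes rose in this heifer, by ratios between 2.32 (*SELP*) and 4.59 (*GP9*), with 3.22 for *PF4* and 2.38 for *ITGA2B*. Heifer 664 on D55 was at the low end, with 19 of 21 heifers above its index. In the comparison of both with the other 21 on D55, 0 of 10 genes were called (0.0179% of all genes), 0 had an unadjusted p under 0.05 (4.72% of all genes), and DESeq2 and the likelihood ratio test called 0.

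Markers of other blood cells differed in these D105 libraries too. The neutrophil list (13 genes in the table) summed to 382 CPM in 604 and 449 CPM in 664 against 764 to 12591 CPM in the other 21. Of its 12 tested genes 7 were called lower (9.48% of all genes were). The monocyte list (10 genes) summed to 506 and 594 CPM against 994 to 7327 CPM, with 7 of 10 called lower (9.48% of all genes). *CD14*, a lipopolysaccharide coreceptor of monocytes, was 11.1 and 13.4 CPM against 33.5 to 316 CPM. The summed levels of both lists were thus below those of all others in both heifers, while heifer 604 but not 664 was above all others in the platelet genes. Single genes of these lists departed from this, such as *CX3CR1*, a chemokine receptor, at 245 CPM in 604 and 131 to 443 CPM in the others. The part of these shifts in the platelet result was not tested.

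The red cell list summed to 623 CPM in heifer 604 and 153 CPM in 664 against 37.5 to 168 CPM in the others, nearly all of it from *HBB* (beta globin), which was 571, 134 and 9.16 to 132 CPM. Of the 17 red cell genes, 11 had a median under 1 CPM, *CA1* was at 0 on D105 in 604, 664 and all others, and *SLC4A1*, the anion exchanger of the red cell membrane, did not exceed 0.0839 CPM. In the pair comparison, 1 of 9 tested red cell genes was called, and it was higher, near the 11.6% of all genes. Of the lymphocyte lists, 3 of 9 B cell genes were called higher (11.6% of all genes). In the T cell list 1 of 11 was called lower, near the 9.48% of all genes. Of 6 natural killer cell genes 0 were called, with 0 at an unadjusted p under 0.05 (37.4% of all genes). Of 6 tested eosinophil and basophil genes 0 were called, with 2 at an unadjusted p under 0.05 (37.4% of all genes). That list summed to 139 CPM in 604 against 15.5 to 93.7 CPM, mainly from *CCR3* (114.1 CPM). Of 7 tested smooth muscle and fibroblast genes 1 was called higher (11.6% of all genes). Of 6 tested endothelial genes 1 was called, lower (9.48% of all genes).

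**Figure D5:**
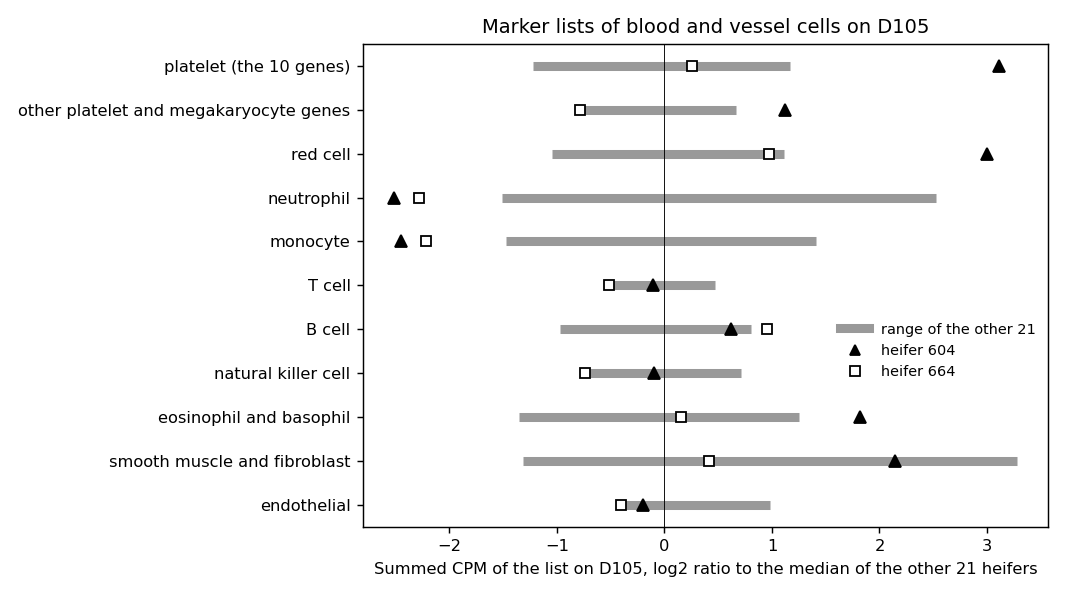
Summed CPM of the platelet genes and of 10 other marker lists in heifers 604 and 664 on D105, as log2 ratio to the median of the other 21 heifers, whose range is the grey bar. Heifer 604 lies outside the bar for the platelet genes (7656 CPM against 380 to 1989 CPM), the other platelet, red cell, and eosinophil and basophil lists, heifer 664 lies above it for the B cell list and below it for the natural killer cell and endothelial lists, and both lie below it for the neutrophil and monocyte lists.

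Across all heifers, the platelet index moved more closely with the mean of the red cell list than with those of the neutrophil and monocyte lists. As descriptions over 23 heifers, the index had r 0.80 on D55 and 0.83 on D105 with the red cell list (0.80 and 0.72 without heifer 604, and 0.71 and 0.84 among the 17 AI and IVP-LOS heifers, whose libraries of a day share a set). With the neutrophil list r was 0.08 and -0.37 (0.16 and -0.10 without heifer 604), and with the monocyte list 0.25 and -0.36 (0.34 and -0.06). With the share of reads on no gene it was 0.22 on D55 and 0.63 on D105, the latter 0.34 without heifer 604. On D55 the eosinophil and basophil list also followed the index (0.65), but on D105 its r was 0.24. The relation of the red cell list was not shared by most of its genes. Over its 7 genes with a mean of at least 1 CPM, the median r was 0.20 on D55 and 0.17 on D105. Of these 7, 2 had r over 0.7 on both days, as had 149 of 13848 genes outside the set. The corresponding medians were 0.10 and -0.32 for neutrophil genes and 0.20 and -0.37 for monocyte genes.

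Genes outside the set were ranked by how closely they followed the index on both days, by the lower of the 2 correlations over 23 heifers. The closest was *MPIG6B*, an inhibitory receptor of megakaryocytes and platelets (r 0.97 on D55 and 0.96 on D105). It was followed by *PDLIM1* (0.96 and 0.97), a cytoskeletal adaptor, *RSU1* (0.96 and 0.96), a partner of integrin-linked kinase complexes, and *CLU* (0.96 and 0.97), the granule protein clusterin. *DYNLT1* (a dynein light chain), *LY6G6F* (a platelet surface receptor), *MYLK* (the kinase of myosin light chains such as *MYL9*), *MAPRE2* (a microtubule end binding protein), *KRT72* (a keratin) and *GP6* (a collagen receptor of platelets) completed the 10, with the lower r between 0.92 and 0.95. Without heifer 604 their D105 correlations were 0.87 (*KRT72*) to 0.95 (*PDLIM1*). The median r over 13848 genes was -0.04 on D55 and -0.03 on D105.

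A list of 44 other platelet and megakaryocyte genes did not behave as a single group. Of the 35 with a mean of at least 1 CPM, 7 were among the 100 genes most like the index. Among them were *MPIG6B*, *CLU*, *GP6*, *GNG11* (a G protein subunit), *GP5* (a partner of *GP9*) and *VWF* (von Willebrand factor), with lower r values from 0.83 (*VWF*) to 0.96. Over the 35 genes the median of the lower r was 0.20, against -0.18 over all genes. *F13A1* (a coagulation factor subunit that monocytes also make) had r 0.24 on D55 and -0.22 on D105, *THBS1* (thrombospondin) 0.25 and -0.28, and *F5* (coagulation factor V) 0.00 and -0.48.

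The same list was counted in the comparisons. For heifers 604 and 664 on D105, 10 of 38 tested genes were called higher and 7 lower (11.6% and 9.48% of all genes). The 5 with the lowest FDR were *NRGN* (a calmodulin binding protein, log2 difference 2.07, FDR 0.00163), *CLU* (2.65, FDR 0.00459), *GP6* (2.06, FDR 0.0107), *PRKAR2B* (a regulatory subunit of protein kinase A, -1.36, FDR 0.0145) and *MPIG6B* (2.14, FDR 0.0154). Without heifer 604 none of the list was called, and without heifer 664 9 were called higher and 0 lower. On D105 against D55, 4 of 36 were called higher in AI heifers without the heifer block, where 7.21% of all genes were. They were *P2RY12* (an ADP receptor, log2 change 3.33, FDR 7.72e-05), *NFE2* (2.04, FDR 0.000395), *GATA1* (1.44, FDR 0.0156) and *TBXAS1* (thromboxane synthase, 0.85, FDR 0.0441). In IVP-Normal heifers 2 of 35 were called higher (2.27% of all genes), *NFE2* (2.53, FDR 0.00481) and *P2RY12* (3.03, FDR 0.00676). In IVP-LOS heifers 0 of 35 were called (0.251% of all genes). With the heifer block the list had 6 genes called higher and 3 lower in AI heifers (17.1% of all genes called), 3 and 2 in IVP-Normal heifers (5.5%) and 1 and 0 in IVP-LOS heifers (1.07%). *NFE2* and *GATA1* are transcription factors of megakaryocytes and of other blood lineages. *NFE2* and *P2RY12* did not follow the index (r 0.10 and 0.16 on D55, -0.21 and -0.29 on D105). None of the list was called in the treatment comparisons, in which 2 to 7 of 35 or 36 tested genes had an unadjusted p under 0.05 (3.24% to 9.92% of all genes) and DESeq2 called 0.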

How the data were processed

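The authors trimmed the reads, aligned them to the bovine assembly ARS-UCD1.2 with HISAT2 2.1.0 and counted them per gene with HTSeq in union mode. The deposited counts are raw read counts per RefSeq gene, and of the lines that name no gene just the one for reads outside genes was read, to give their share. A second deposited count table, on Ensembl identifiers that are not paired with names, was not used. Here, counts were scaled with TMM and tested in R 4.3.3 with edgeR 4.0.16 (quasi-likelihood F-test, filterByExpr with a minimum count of 10, only the compared groups in a fit). A gene was called at FDR 0.05 or less (Benjamini-Hochberg, over all genes tested). There were 14 such comparisons. Libraries of the same number come from the same heifer on 2 days, so the heifer pairs them, and it entered as a replicate block in an alternative fit. As a check, deviations from the group means over 13857 genes correlated within all 23 heifers (0.29 to 0.84, median 0.57). The best match was the heifer's own other library in 21 of the 23. On simulated counts, 200 of 16841 genes were changed by 2 on the log2 scale. The comparison of 2 heifers with 21 called 75% of these 200, with 3 false calls. In the measured D105 counts that comparison called 21.1% of all genes, and how many of those calls were false was not tested. Correlations used log2(CPM + 1), with 0.1 as another pseudocount, and 100000 permutations. The other tools were edgeR's likelihood ratio test and DESeq2 1.42.0. Other alternatives were upper-quartile scaling, no filter, the library sets, and leaving out heifers. All 10 genes and up to 5 called genes of the other platelet list per comparison are named, and the 10 genes most like the index. The genes, lists and tests were chosen with earlier results of these data known. Gene neighbours come from a RefSeq table of another assembly, ARS-UCD2.0, and no positions are printed. With depths of 18692653 to 24502012 reads, counting error is small for most of the 10 genes. It is larger for *GP1BA* and in the lowest libraries of *TREML1* (19 reads), *SELP* (39 reads) and *GP9* (40 reads). The values of 1 gene of the other platelet list are not reported here.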

Additional observations from a re-analysis of the deposited data

Results flagged for a closer look

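In each treatment group and day, the highest and the lowest CPM of each gene were set against the gap to the next heifer by Dixon's criterion (60 groups, 10 exceeding it, and 1 when log2 values were used). For independent, normally spread values chance gives about 1 in 20 groups, and these genes move together. Of the 10, 8 were the IVP-LOS group on D105, each with heifer 604 as the high value. They were *PF4* (2267 CPM, group median 214), *TUBB1* (3310 CPM, median 463), *MYL9* (888 CPM, median 120.5), *ITGB3* (794 CPM, median 131), *GP9* (66.1 CPM, median 5.89), *SELP* (41.4 CPM, median 6.77), *TREML1* (25.0 CPM, median 2.58) and *GP1BA* (2.15 CPM, median 0.0876). The other two were *GP1BA* on D55, high in IVP-Normal heifer 628 (1.16 CPM, median 0.193) and in IVP-LOS heifer 512 (1.63 CPM, median 0.563). Heifers 628 and 512 also had the highest D55 platelet index of their groups (1.22 and 1.36). No platelet gene changed between days in a way that differed between treatments by the interaction test.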

How the results depend on the processing

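For heifers 604 and 664 on D105, the number of platelet genes called was 8 with edgeR's quasi-likelihood test (21.1% of all genes). It was also 8 with the likelihood ratio test (3754 of all 16841 genes), DESeq2 (4424 of 24543) and upper-quartile scaling (3656 of 16841). Without the expression filter it was 6 (2906 of 24543), and *PPBP* (FDR 0.0602) and *SELP* (FDR 0.0598) were lost. Leaving out 1 heifer (604, 637 or 664) gave 0 to 8, with 0 without heifer 604. The log2 difference then ranged from -0.35 (without 604) to 3.27 (without 664) for *GP9* and from -0.16 to 2.78 for *TREML1*, both below 0 without heifer 604, as were *ITGA2B* and *GP1BA*, which were not called with both heifers. With the heifer as a replicate block, 1 gene was called in each of 2 comparisons of D105 with D55, in AI heifers (*MYL9*) and in IVP-Normal heifers (*ITGA2B*). The block changed no other call of these 10 genes, and the other platelet list had 6 higher and 3 lower in place of 4 and 0 in AI heifers, 3 and 2 in place of 2 and 0 in IVP-Normal heifers, and 1 and 0 in place of 0 in IVP-LOS heifers. The cause was not tested. The number with a correlation between days was 9 in each alternative except without a filter on low values (10, with *GP1BA*). In the other comparisons 0 were called under each alternative run. The omission of heifer 604 outside the pair comparisons was chosen after seeing the data. The Ensembl table was not run as an alternative, since the reference table pairs 0 Ensembl identifiers with names. Library set and day cannot be told apart in AI and IVP-LOS heifers, nor season and day in any group, and *GP1BA* is limited by its read counts.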
